A study of Mus musculus with 4 samples.

Results

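The exon junction complex (EJC) and the nonsense-mediated decay (NMD) machinery were examined in mouse embryonic stem cells (mESCs) with and without Npac. The genes were taken by name from the deposited tables: Rnps1, Eif4a3, Magoh, Magohb, Rbm8a, Casc3, Upf1, Upf2, Upf3b and Smg1. All 10 were found among 56748 genes listed, and all 10 passed the filter on low counts. RNA-seq of 4 libraries of E14 cells, a mouse embryonic stem cell line, was available: WT1 and WT2 from cells with unaltered Npac, and KO1 and KO2, each from 1 Npac knockout line. To make these lines, E14 cells received Cas9 and guide RNAs against exon 3 of Npac by electroporation, were selected with puromycin and were picked as colonies. All cells were grown without feeders on gelatin with LIF. Each knockout line is therefore 1 clone with 1 library. Nothing in the labels says that WT1 and WT2 came from separate cultures, so the p-values measure the spread between these libraries, which may be technical. Total counts were 15850805 and 16568283 in WT1 and WT2 against 16233971 and 16965120 in KO1 and KO2.

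During splicing, the EJC is placed on mRNA just upstream of each exon-exon junction. Its core consists of the RNA helicase Eif4a3, the heterodimer of Rbm8a (Y14) with Magoh or its paralog Magohb, and Casc3 (Barentsz), while Rnps1 is a peripheral component that also takes part in splicing. A ribosome normally strips these complexes from an mRNA in the first round of translation. When it stops at a premature codon and a complex remains downstream, Upf3b and Upf2 bridge that complex to the helicase Upf1, the kinase Smg1 phosphorylates Upf1, and the transcript is degraded. Besides faulty transcripts, NMD keeps many normal ones low, among them noncoding hosts of small nucleolar RNAs, stress-response mRNAs and splicing factor isoforms that carry a poison exon.

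Rnps1 has a processed pseudogene, Rnps1-ps, whose sequence is nearly the same, and the reads counted at both loci bear on the comparison below. In the GENCODE M21 transcripts (GRCm38), Rnps1-ps spans 843 bases and aligns to Rnps1 over its whole length with 99.41% identity and 5 mismatches. These are C171A, C260T, T489C, T510C and C684T, with the base of Rnps1 first, the position counted from 1 at the 5′ end of Rnps1-ps, and then the base of Rnps1-ps. All 5 lie in coding exons of Rnps1, and the longest stretch without a difference is 228 bases. Of the 694 windows of 150 bases, the length of 1 read, that can be placed in Rnps1-ps, 134 (19.3%) are identical in Rnps1. This count takes single reads, without their mates and without reads that run past the aligned bases. Within the 843 aligned bases, a read can be told apart only at the 5 differences. The windows below show 4 of these 5 differences. They run 5′ to 3′ on the plus strand of chromosome 17 in Rnps1 (GRCm38), with the differing bases in capitals, at chr17:24420280-24420340 in exon 4, chr17:24422158-24422218 in exon 6 and chr17:24424451-24424511 in exon 7.
Rnps1 exon 4: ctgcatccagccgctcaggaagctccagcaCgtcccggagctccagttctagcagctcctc
Rnps1-ps, same window: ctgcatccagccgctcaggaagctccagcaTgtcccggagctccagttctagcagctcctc
Rnps1 exon 6: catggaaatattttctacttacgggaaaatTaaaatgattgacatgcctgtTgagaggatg
Rnps1-ps, same window: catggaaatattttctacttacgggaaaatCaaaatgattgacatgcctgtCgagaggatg
Rnps1 exon 7: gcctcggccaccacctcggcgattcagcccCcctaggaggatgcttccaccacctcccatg
Rnps1-ps, same window: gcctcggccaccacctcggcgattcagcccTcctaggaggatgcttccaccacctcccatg

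The targeted gene was examined first. Glyr1, the symbol under which Npac is listed, had 3961 and 3115 reads in WT1 and WT2 against 744 and 888 in KO1 and KO2. Each knockout line was below either WT library, and the level in KO was 22.7% of that in WT (log2 fold change −2.14 ± 0.23 (SE), adjusted p = 0.00174). Adjusted p-values come from the quasi-likelihood test of edgeR, adjusted after Benjamini and Hochberg over the 18157 genes tested. A gene was called changed where the adjusted p was under 0.05 and the change exceeded 1.5-fold.

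To address whether the EJC and NMD machinery differed in Npac KO cells, each gene was compared between the 2 KO and the 2 WT libraries. Rnps1, Upf1, Casc3 and Rbm8a were called higher in KO, which is 4 of 10, and none was called lower. Among all genes tested, 1999 (11.0%) were called higher and 1946 (10.7%) lower. The 10 genes were chosen with earlier results of these data known, so their count is a description and not a test. Of the 10, 3 lie on chromosomes 8 and 11, where 26.1% and 26.7% of genes were called higher. Among those 3 are 2 of the 4 called higher. The median log2 fold change was 0.63 over the 10 genes and 0.0015 over all genes. In 7 of the 10, KO1 and KO2 were each above WT1 and WT2, which was true of 33.2% of all genes, and in 1, Upf2, both were below, which was true of 32.5%. DESeq2 and limma also called none of the 10 lower, and the 95% intervals of Upf2 and Smg1, the genes with a negative change, included 0.

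**Figure D1:**
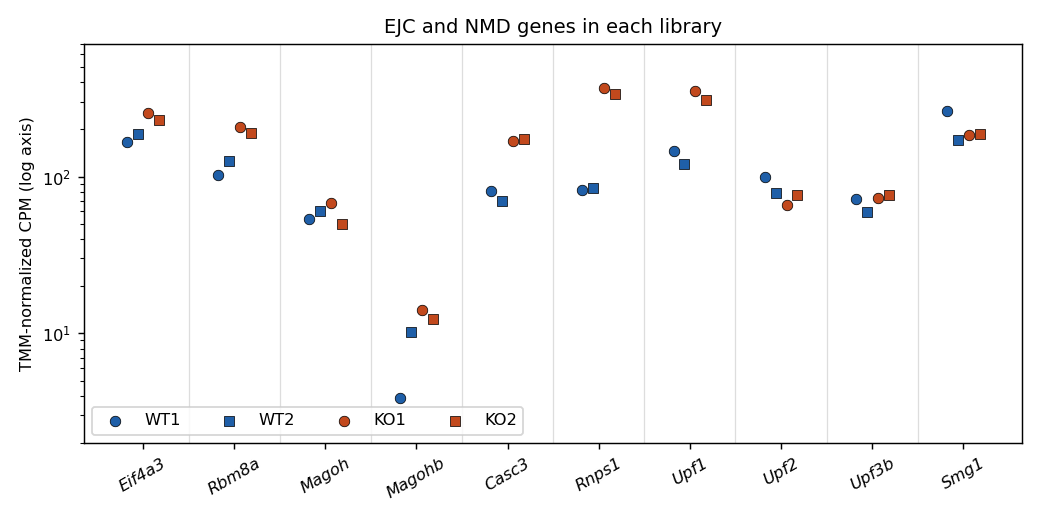
Level of each EJC and NMD gene (TMM-normalized CPM, log axis) in WT1 and WT2 (blue) and KO1 and KO2 (orange), with 1 point per library. The KO points lie well above the WT points for Rnps1, Upf1, Casc3 and Rbm8a, and the points of the groups interleave for Magoh and Smg1.

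Counted at its own locus, Rnps1 had the largest difference of the 10 genes. Its protein binds pre-mRNA, promotes splicing and joins the EJC. Rnps1 was at 81.5 and 83.9 CPM in WT1 and WT2 against 369 and 337 in KO1 and KO2, as normalized with TMM factors. The libraries of each group lay close together, and the KO libraries were far above the WT libraries. Rnps1 was 4.27-fold higher in KO (log2 fold change 2.10 ± 0.18 (SE), 95% interval 1.67 to 2.52, adjusted p = 0.000795). Rnps1-ps moved the opposite way. It had 1232 reads in WT1 and 1503 in WT2 against 13 in KO1 and 21 in KO2 (log2 fold change −6.33 ± 0.28 (SE), adjusted p = 5.28e-05). In the deposited counts, Rnps1-ps thus held 49.8% and 50.6% of the reads of the pair in WT1 and WT2, but 0.226% and 0.358% in KO1 and KO2. When the reads of both loci were summed, the totals were 2476 and 2968 in WT1 and WT2 against 5748 and 5862 in KO1 and KO2. The KO totals remained above the WT totals, and the summed locus was 2.13-fold higher (log2 fold change 1.09, adjusted p = 0.0071), a smaller change than that of Rnps1 alone. The summed locus was below Upf1 (2.47-fold) and Casc3 (2.25-fold), but above them (2.29-fold against 1.73-fold and 1.59-fold) when chromosome medians were removed as well. Whether reads from 1 of the loci were counted at the other was not tested.

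Eif4a3, the helicase that anchors the EJC to RNA, was not called. It was at 166 and 186 CPM in WT1 and WT2 against 256 and 229 in KO1 and KO2. Both KO libraries were higher, yet the difference did not pass the test (log2 fold change 0.46, 95% interval 0.04 to 0.88, adjusted p = 0.104). Eif4a3 also has near-identical copies, all on chromosome 6 in the tables, namely Eif4a3l1 (95.69% identity), Eif4a3l2 (96.4%) and the processed pseudogene Gm5576 (96.76%). Eif4a3l1 was listed at 221 and 1023 reads in WT1 and WT2 against 2 and 6 in KO1 and KO2. Eif4a3l2 had 109 and 379 reads in WT and 0 and 4 in KO. Gm5576 had 24 and 92 in WT and 0 and 11 in KO. All 3 copies were lower in both KO libraries, and they differed strongly between WT1 and WT2. Together they made up 12.2% of the reads of the family in WT1 and 31.5% in WT2, against 0.0503% in KO1 and 0.526% in KO2. With the copies added, the family had 2895 and 4743 reads in WT1 and WT2 against 3975 and 3992 in KO1 and KO2, so that the KO libraries fell between the WT libraries (log2 fold change 0.08, adjusted p = 0.829). None of the 150-base windows of Eif4a3l1 or Gm5576, and 2 of 1213 in Eif4a3l2, were identical in Eif4a3.

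**Figure D2:**
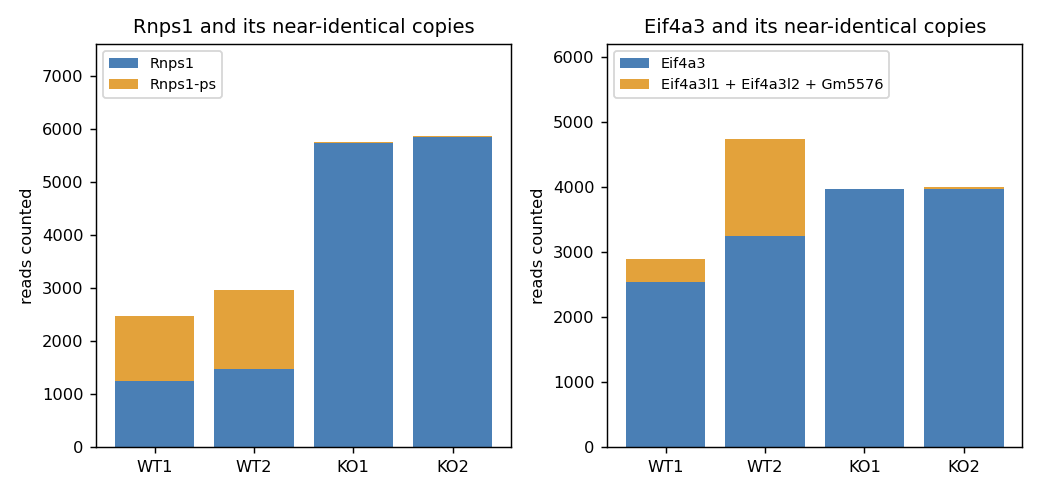
Reads counted at Rnps1 and Eif4a3 (blue) and at their near-identical copies (yellow, stacked) in each library. Copies took 49.8% and 50.6% of the Rnps1 pair in WT1 and WT2 and almost nothing in KO1 and KO2, and the summed Rnps1 bars remain taller in KO, whereas the summed Eif4a3 bars of KO lie between those of WT1 and WT2.

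Rbm8a forms the heterodimer that locks the EJC on RNA. It was at 103 and 126 CPM in WT1 and WT2 against 207 and 190 in KO1 and KO2, and the groups did not overlap. It was 1.74-fold higher in KO (log2 fold change 0.80 ± 0.19 (SE), adjusted p = 0.0234). The call was lost without KO1 (log2 fold change 0.72) and without KO2 (0.87). It was also lost when the deposited FPKM were tested with limma (0.78, adjusted p = 0.0613 at a pseudocount of 1, and 0.80, adjusted p = 0.0564 at 0.1). The difference was 0.63 without WT1 and 0.95 without WT2, so its size depended on the WT library kept. With 1 KO line left out, the other is assumed to vary like the WT pair, and the genes called higher over the whole table drop from 1999 to 851 without KO1 and 826 without KO2. Its copy Rbm8a2 had at most 1 read in any library. Magoh and Magohb encode alternative partners of Rbm8a. Magoh did not differ detectably, at 53.8 and 60.4 CPM in WT1 and WT2 and 68.1 and 49.98 in KO1 and KO2 (log2 fold change 0.05, 95% interval −0.45 to 0.54, adjusted p = 0.894). Magohb was at 3.86 and 10.2 CPM in WT1 and WT2 and 14.1 and 12.4 in KO1 and KO2. Its KO libraries were above both WT libraries, but WT1 rested on 59 reads against 178 in WT2, and the difference did not pass the test (log2 fold change 0.91, 95% interval −0.14 to 1.96, adjusted p = 0.185). With a replicate block, a pairing that was not established, Magohb was called (log2 fold change 1.03, adjusted p = 0.0320). Without WT2 the Magohb difference was called (log2 fold change 1.77, adjusted p = 3.37e-05), and without WT1 it was 0.35. The processed pseudogene Gm44958, which overlaps Magohb, was listed at 0 reads in every library.

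The relative amounts of Magohb and Magoh were also compared. On the FPKM scale, which divides reads by gene length, Magohb made up 3.12% and 7.02% of the pair in WT1 and WT2 against 8.48% and 9.97% in KO1 and KO2. The share was higher by 4.16 percentage points in KO, with the groups apart, but by 2.203 points without WT1 and 6.11 without WT2, and by 7.92 points on raw counts. The two-sided exact permutation test gave p = 0.3333, the smallest that 2 against 2 libraries can give. Upf3a and Upf3b, paralogs that bind Upf2, were treated in the same way. Upf3a made up 24.3% and 26.8% of that pair in WT1 and WT2 against 36.6% and 32.8% in KO1 and KO2, a difference of 9.12 points (exact permutation p = 0.3333, again the smallest possible). Upf3a itself rose (log2 fold change 0.83 ± 0.19 (SE), adjusted p = 0.0211), whereas Upf3b did not pass the test. The call of Upf3a was lost without KO1 (0.73, adjusted p = 0.248) and without KO2 (0.94, adjusted p = 0.111), with a difference of similar size, and with limma on FPKM (adjusted p = 0.0687 and 0.0595 at pseudocounts of 1 and 0.1). Upf3a is on chromosome 8, whose genes were shifted as a whole in KO, and with chromosome medians removed it was at 0.32 (adjusted p = 0.270), a shift that the share also carries.

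Casc3, the core subunit that stabilizes the EJC on RNA and is linked to NMD, was at 81.3 and 70.1 CPM in WT1 and WT2 against 168 and 173 in KO1 and KO2. The KO libraries nearly coincided and were well above WT, with a 2.25-fold higher level (log2 fold change 1.17 ± 0.18 (SE), 95% interval 0.76 to 1.59, adjusted p = 0.00577). Casc3 overlaps Msl1 on the same strand. Msl1 had 856, 579, 1295 and 1026 reads in WT1, WT2, KO1 and KO2, fewer than Casc3 in each library.

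Among the NMD factors, Upf1, the helicase at the centre of the pathway, was at 145 and 121 CPM in WT1 and WT2 against 348 and 307 in KO1 and KO2. Each KO library was above both WT libraries, and Upf1 was 2.47-fold higher (log2 fold change 1.30 ± 0.19 (SE), 95% interval 0.86 to 1.75, adjusted p = 0.00515). Cers1 overlaps Upf1 on the opposite strand and had between 67 and 124 reads per library, against 2108 or more for Upf1. Its partners Upf2, Upf3b and Smg1 were not called. Upf2, the adaptor between Upf1 and Upf3b, was at 99.6 and 78.8 CPM in WT1 and WT2 and 65.6 and 76.4 in KO1 and KO2 (log2 fold change −0.33, 95% interval −0.79 to 0.14, adjusted p = 0.268). Upf3b, which contacts the EJC directly, was at 71.5 and 59.1 CPM in WT1 and WT2 and 73.4 and 76.0 in KO1 and KO2 (log2 fold change 0.20, 95% interval −0.24 to 0.63, adjusted p = 0.487). Smg1, the kinase of Upf1, was at 261 and 170 CPM in WT1 and WT2 and 183 and 186 in KO1 and KO2 (log2 fold change −0.22, 95% interval −0.76 to 0.31, adjusted p = 0.524). Each of these 3 intervals extends past a 1.5-fold change in 1 direction. In bulk RNA, a difference in the share of cells that express a gene and in the RNA per cell cannot be told apart.

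The position of the genes was then considered, since genes of 2 chromosomes were shifted as a whole. In KO1 and KO2, the median log2 difference from WT was 0.51 and 0.52 over 979 genes of chromosome 8, and 0.51 and 0.49 over 1455 genes of chromosome 11. On these chromosomes 26.1% and 26.7% of the genes were called higher. Upf1 is on chromosome 8 (positions 70784175 to 70805928 as listed), and Casc3 (98695731 to 98724640) and Eif4a3 (119179189 to 119190915) are on chromosome 11. With chromosome medians removed, Upf1 was still called at 0.79 on the log2 scale (adjusted p = 0.0273). Casc3 was also called, with 0.67 (adjusted p = 0.0371), so that about 0.50 of either change was shared with the rest of the chromosome. Eif4a3 went to −0.04 (adjusted p = 0.895), and to −0.42 (adjusted p = 0.206) when its copies were added as well. Rnps1 on chromosome 17 (24633539 to 24644875) and Rbm8a on chromosome 3 (96537249 to 96541107) lie on chromosomes whose medians were −0.09 and −0.11, and −0.10 and −0.13, in KO1 and KO2. Their changes became 2.197 and 0.91 after removal, and Rnps1 with its copy was at 1.19 (adjusted p = 0.00609). What shifted these chromosomes was not tested.

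**Figure D3:**
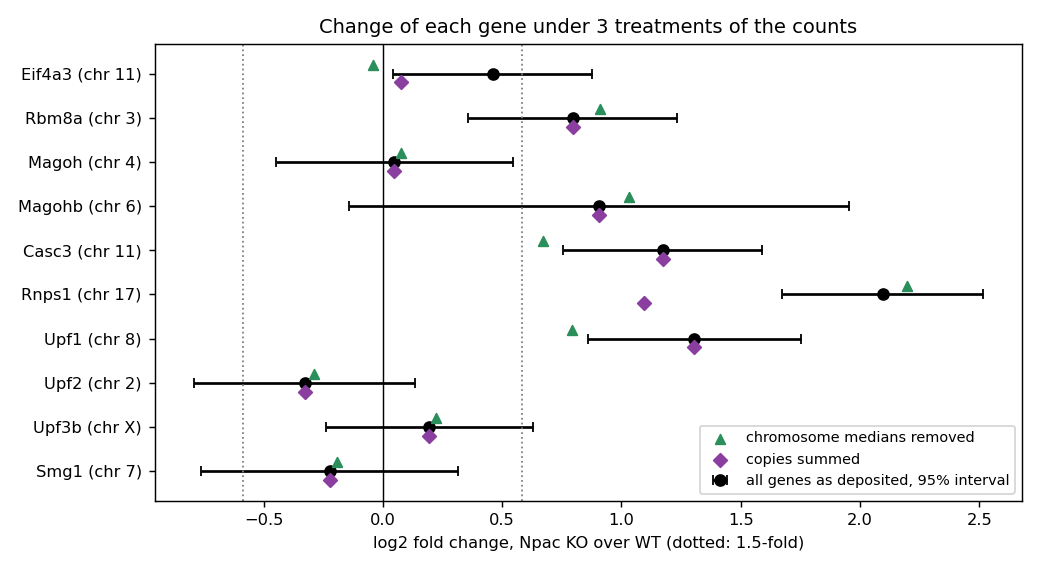
Log2 fold change of each EJC and NMD gene, KO over WT, with the 95% interval (black), after the chromosome medians were removed (green) and with the reads of near-identical copies added (purple). Dotted lines mark 1.5-fold. Rnps1 moves from 2.10 to 1.09 when Rnps1-ps is added, and Upf1, Casc3 and Eif4a3 move left by about 0.50 when the medians are removed.

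Levels were compared between genes on the FPKM scale, with the gene length listed for each gene as the divisor. Whether that length is the length of the expressed mRNA was not tested, and the order between genes depends on it. In WT, Eif4a3 (mean 82.4 FPKM) and Magoh (73.5) were the most abundant, followed by Rbm8a (35.3) and Upf1 (28.5). Casc3 (17.4), Upf3b (16.2), Upf2 (16.2) and Rnps1 (15.98) came next, and neighbours among these 4 overlapped between libraries. Smg1 (8.91) and Magohb (4.05) were the lowest. In KO, Eif4a3 (113) stayed at the top, and Magoh (75.9), Upf1 (70.3) and Rnps1 (68.1) followed, each overlapping with the next. Rnps1 alone was at 15.8 and 16.2 FPKM in WT1 and WT2 and at 71.7 and 64.6 in KO1 and KO2. With the reads of Rnps1-ps added at the length of Rnps1, it was at 31.4 and 32.8 FPKM in WT1 and WT2 and 71.8 and 64.8 in KO1 and KO2, which overlapped Rbm8a in WT and Magoh and Upf1 in KO. The order around Rnps1 in WT therefore depends on how the reads of the pair are assigned. Then came Rbm8a (61.2), Casc3 (39.2), Upf3b (18.5) and Upf2 (12.8), while Magohb and Smg1 (both 7.61) could not be ordered. Rnps1-ps stood at 95.05 and 101 FPKM in WT1 and WT2, above Rnps1, and at 0.989 and 1.41 in KO1 and KO2. Its place above Rnps1 in WT reflects the listed lengths, which are 843 bases for Rnps1-ps and 5131 for Rnps1. The reads themselves were similar, at 1232 and 1503 for Rnps1-ps and 1244 and 1465 for Rnps1 in WT1 and WT2.

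**Figure D4:**
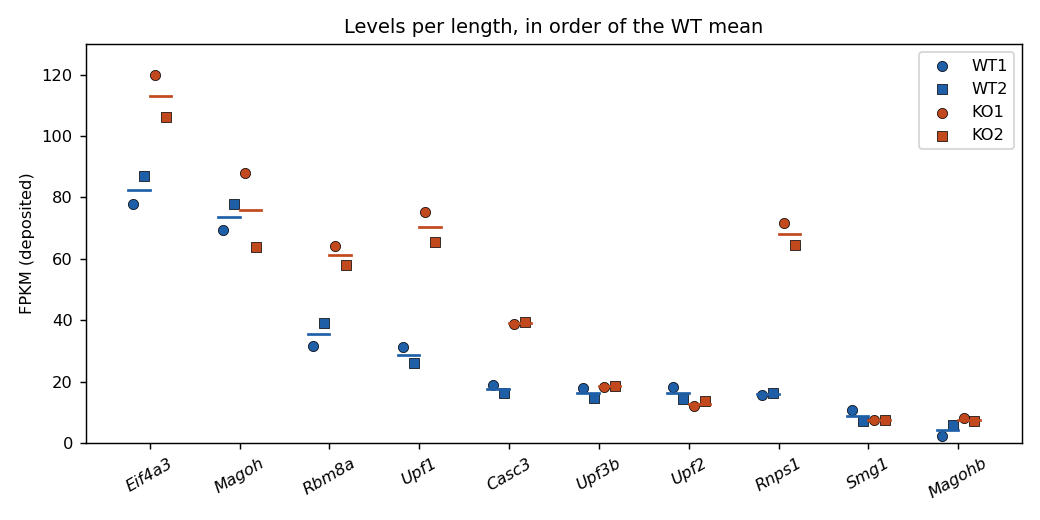
Level per length (deposited FPKM) of each gene in each library, in the order of the WT mean, with short lines at the group means. Eif4a3 and Magoh lead in WT, and Rnps1 and Upf1 come near Magoh in KO.

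The rest of the pathway was described from lists of genes. Of 5 EJC core genes, 2 were called higher (Casc3 and Rbm8a), and the median log2 fold change was 0.80. Of 14 peripheral and assembly factors, 4 were higher and 1 lower, with a median of 0.37. Beside Rnps1, the higher ones were Upf3a, the splicing coactivator Srrm1 (log2 fold change 0.74) and the cap-binding protein Ncbp3 (0.60), the last named after its value was seen. The lower one was Cwc22 (−0.88, adjusted p = 0.0154), which escorts Eif4a3 into the spliceosome. Of 16 NMD factors, 4 were higher and none was lower (median 0.33): Upf1, Upf3a, and the Smg1 regulators Smg8 (1.02) and Smg9 (0.74), the last again named after its value was seen. Without the 10 genes chosen, these lists held 23 genes, of which 5 were higher and 1 lower (median 0.38), beside 1999 and 1946 of 18157 genes. Upf3a on chromosome 8 and Smg8 and Ncbp3 on chromosome 11 were no longer called after the chromosome medians were removed (log2 fold changes 0.32, 0.52 and 0.10, adjusted p = 0.270, 0.106 and 0.716). With a single KO line, calls outside the 10 genes were lost while the differences stayed of similar size. Srrm1 was at 0.62 without KO1 and 0.85 without KO2 (adjusted p = 0.263 and 0.108), Smg8 at 0.95 and 1.10 (0.110 and 0.0648), Smg9 at 0.71 and 0.78 (0.284 and 0.217) and Cwc22 at −1.02 and −0.74 (0.0755 and 0.216). Ncbp3 was at 0.57 and 0.63 (0.347 and 0.274), and at 0.54 without WT2, under 1.5-fold. With limma on FPKM, 1 EJC core gene, 1 peripheral factor and 2 NMD factors were called higher at either pseudocount. With the replicate block, and with no filter on low counts, 7 NMD factors were higher, and without WT2 1 was lower.

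Steps around NMD had calls in both directions. Among 4 genes of translation termination and recycling, Gspt2, which encodes a form of the release factor eRF3, fell by 1.59 on the log2 scale (adjusted p = 0.00368), and the median was 0.13. None of the 4 was called higher, but 1 was with DESeq2, upper-quartile normalization, no filter on low counts or the replicate block. Among 22 genes of decapping, deadenylation and 5′-3′ decay, 2 were higher, the deadenylase Cnot7 (1.42) and the decapping scaffold Edc4 (0.77). In the same list 2 were lower, the decapping cofactor Dcp1b (−0.97) and the exonuclease Xrn1 (−0.80), and the median was −0.09. Over all genes, 11.0% were higher and 10.7% lower. The list had 4 higher with no filter on low counts and with the replicate block and 6 without WT1, and 4 lower without WT2. Cnot7 and Edc4 are on chromosome 8. With chromosome medians removed, Cnot7 went to 0.91 and was still called, and Edc4 went to 0.25 (adjusted p = 0.324). Dcp1b on chromosome 6 (−0.85, adjusted p = 0.0560) and Xrn1 on chromosome 9 (−0.60, adjusted p = 0.107) also lost their calls but kept most of the difference. Among 14 mRNA export factors, Ddx39a (1.04), Sarnp (0.90) and Thoc5 (0.63) were higher and Poldip3 (−1.11) was lower, with a median of −0.07. Ddx39a on chromosome 8 and Thoc5 on chromosome 11 likewise lost their calls, with 0.52 and 0.13 after removal. Gspt2, Cnot7 and Poldip3 kept their calls whichever library was left out. With 1 KO line left out, which also lowers the calls over all genes, the others lost theirs with differences of similar size, except Ddx39a, which was called without KO2. Without KO1 and KO2 in turn, Edc4 was at 0.76 and 0.78, Dcp1b at −0.90 and −1.04, Xrn1 at −0.73 and −0.88, Ddx39a at 0.81 and 1.25, Sarnp at 0.98 and 0.81 and Thoc5 at 0.68 and 0.59. Without WT1, Xrn1 (−0.50) and Thoc5 (0.55) were under 1.5-fold. With limma on FPKM at a pseudocount of 1, none of the mRNA export factors was called higher (adjusted p = 0.0618 for Ddx39a, 0.0775 for Sarnp and 0.0618 for Thoc5) and none of the decay genes lower, and the same was true at 0.1.

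Transcripts known as NMD targets were described from 3 lists. Of 10 noncoding host genes of small nucleolar RNAs, Gas5 and Snhg6 were higher and Snhg1 was lower, with a median of −0.01, beside 11.0% higher and 10.7% lower over all genes. Gas5, a classical NMD substrate, was at 57.1 and 49.1 CPM in WT1 and WT2 and at 330 and 260 in KO1 and KO2 (log2 fold change 2.47 ± 0.21 (SE), adjusted p = 0.000724). Snhg6 was at 34.3 and 28.1 CPM in WT1 and WT2 and 118 and 105 in KO1 and KO2 (log2 fold change 1.84, adjusted p = 0.00177). Snhg1 fell from 216 and 158 CPM in WT1 and WT2 to 92.1 and 83.7 in KO1 and KO2 (log2 fold change −1.09, adjusted p = 0.0120). The groups did not overlap for any of the 3, and the call of Snhg1 was lost without KO2 (log2 fold change −1.01, adjusted p = 0.0950) and with limma on FPKM at a pseudocount of 1 (−1.05, adjusted p = 0.0548). The list had 2 lower without WT1, with the replicate block and with chromosome medians removed. Of 9 stress and growth arrest mRNAs reported as NMD targets, 6 were lower and none was higher, with a median of −2.37, and 2 of the 9 were called lower with limma on FPKM at either pseudocount. Chac1, a glutathione-degrading enzyme, was at 234 and 136 CPM in WT1 and WT2 and at 1.80 and 17.5 in KO1 and KO2 (log2 fold change −4.25, −3.41 without KO1 and −6.66 without KO2). The pseudokinase Trib3 was at 258 and 151 CPM in WT1 and WT2 and at 16.9 and 37.4 in KO1 and KO2 (−2.91, −2.46 without KO1 and −3.58 without KO2). Ddit3 (CHOP), a transcription factor, was at 127 and 208 CPM in WT1 and WT2 and at 12.5 and 39.7 in KO1 and KO2 (−2.68, −2.09 without KO1 and −3.72 without KO2). Both KO lines were below WT for all 3, by amounts that differed between the lines. Also called lower, outside the 3 largest falls, were Gadd45a (−2.48), Atf3 (−2.37) and Atf4 (−1.18), named after their values were seen. In KO1 and KO2, Gadd45a was at 23.2 and 23.7 CPM, Atf3 at 2.25 and 6.93 and Atf4 at 195 and 242. On FPKM at a pseudocount of 1, Chac1 (adjusted p = 0.0579) and Ddit3 (0.0634) were not called. Of 15 splicing factors with poison exons, 1, Srsf5, was lower (−0.67, adjusted p = 0.0457), and the median was −0.0044. The share called lower over all genes was 10.7%, and the list had 2 lower with DESeq2 and with at least 10 reads in every library, and 3 with no filter on low counts and with the replicate block. With limma on FPKM none of the list was called lower, and Srsf5 had adjusted p = 0.0976 at a pseudocount of 1 and 0.0902 at 0.1. Srsf5 was not called without KO1 (−0.64, adjusted p = 0.268), KO2 (−0.69, adjusted p = 0.222) or WT1 (−0.53), nor with chromosome medians removed (−0.57, adjusted p = 0.0768). The counts sum all isoforms of a gene and do not separate those with a poison exon.

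**Figure D5:**
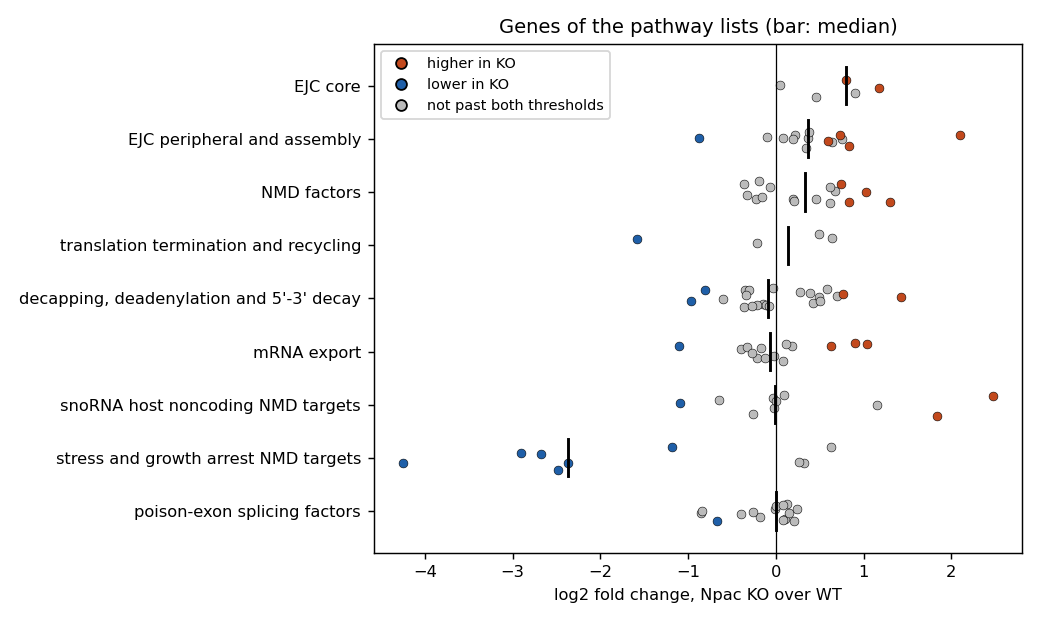
Log2 fold change of every tested gene in the pathway lists, KO over WT, with genes called higher in orange, called lower in blue and others in grey, and black bars at the medians. The EJC core, peripheral and NMD factor medians are 0.80, 0.37 and 0.33, and that of the stress and growth arrest list is −2.37.

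The genes of these lists whose profile over the 4 libraries was nearest to that of Rnps1 were Snhg6, Gas5 and Cnot7. Their distances, in log2 CPM after each gene was centred on its mean, were 0.343, 0.444 and 0.677, among 106 candidates. With the reads of Rnps1-ps added to Rnps1, an alternative chosen after the data were seen, the nearest were Casc3 (0.249), Smg8 (0.257) and Upf3a (0.287), so the likeness depends on how the reads of the pair are assigned.

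The labelled cell type was checked against its markers. All 10 embryonic stem cell markers were tested, and 2 were lower in KO, Zfp42 (log2 fold change −2.64) and Tfcp2l1 (−1.24), with a list median of −0.48. For this and the other marker lists, the shares over all genes were 11.0% called higher and 10.7% called lower. The number called lower was 4 with DESeq2 and with the replicate block, 5 without WT2 and 1 with limma on FPKM, where Tfcp2l1 was not called (adjusted p = 0.0664 at a pseudocount of 1). Summed over the list, the level was 7802 and 6772 CPM of the total counts in WT1 and WT2 and 5304 and 5313 in KO1 and KO2. The most abundant marker, Dppa5a, had 19538, 21590, 23519 and 26263 reads in WT1, WT2, KO1 and KO2. Markers of other cells were low. The 9 fibroblast markers summed to 41.9, 84.9, 53.1 and 67.4 CPM in WT1, WT2, KO1 and KO2, with Thy1 the most abundant, Col3a1 and Dcn listed at 0 in every library, and 1 of 5 tested called higher, Col1a1 (1.29). The 6 primitive endoderm markers summed to 28.3 and 29.7 in WT and 14.2 and 22.1 in KO, with Gata4 the most abundant, and 1 of 5 tested was lower, Sox7 (−4.48). Sox7 had 4 and 16 reads in KO1 and KO2, and was at −3.87 without KO1 and −5.66 without KO2. With at least 10 reads required in every library, Sox7 was dropped before the test by its 4 reads in KO1. None of the remaining primitive endoderm markers was called lower. The 6 trophectoderm markers summed to 51.1 and 83.3 in WT and 104 and 104 in KO, with Krt8 the most abundant, and 1 of 4 tested was higher, Krt18 (1.05). Col1a1, on chromosome 11, lost its call with chromosome medians removed (0.79, adjusted p = 0.131) and, with a difference of 1.30 and 1.29, without KO1 and KO2 in turn (adjusted p = 0.116 and 0.124). Krt18 did so without KO1 and KO2 in turn, at 1.08 and 1.04 (adjusted p = 0.0877 and 0.124). Neither was called with limma on FPKM, whereas 2 fibroblast markers were called higher with the replicate block. The part of these marker changes in the levels of EJC and NMD genes was not tested.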

How the data were processed

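RNA was sequenced by the study as paired-end reads of 150 bases. The authors deposited raw read counts per gene and FPKM. The deposited FPKM equal the counts over gene length and a scaled library size. The submitters' processing notes name CASAVA, HISAT2 2.0.5, featureCounts 1.5.0-p3 and mm10. Of 52073 genes matched by ID, 1472 had the same start and end in GENCODE M21 (GRCm38), and none of the 10 members did, so listed positions belong to a build not given in the sources used here. The paper names another version of HISAT. Neither the strand setting nor the treatment of reads that map to several places is given. How reads shared by overlapping genes or by near-identical copies were counted is therefore not known.

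Counts were analysed with R 4.3.3 and edgeR 4.0.16 (TMM, filterByExpr, quasi-likelihood test) on 4 libraries, WT against Npac KO, with no covariate. The biological coefficient of variation was 0.235. Log2 CPM correlated at 0.964 between WT1 and WT2 and 0.981 between KO1 and KO2 across genes. Copies of members were found with blastn 2.17.0+ at 90% identity or more over at least 50% of the copy. Alternatives used DESeq2 1.42.0, limma 3.58.1 on log2(FPKM + pseudocount), other normalizations and filters, a replicate block, chromosome medians removed (chromosomes with at least 50 genes), copies summed, and each library left out. Named genes were the members, Glyr1, their paralogs and pseudogenes, the 3 largest rises and falls past both thresholds in each list, and the 3 genes most like Rnps1. The members and lists were chosen with earlier results of these data known. The precision of a value is limited by 2 libraries per group.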

Additional observations from a re-analysis of the deposited data

How the results depend on the processing

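Rnps1, Casc3 and Upf1 were called higher in all 11 other settings and without each of the 4 libraries, with log2 fold changes of 1.09 to 2.197, 0.67 to 1.26 and 0.79 to 1.42. The count called higher was between 3 and 5 of 10 throughout, and none was called lower in any. Rbm8a lost its call with limma on FPKM and without KO1 or KO2, at 0.72 to 0.87, and was at 0.63 without WT1 and 0.95 without WT2. Eif4a3 changed sign once chromosome medians were removed (−0.040) and with its copies summed too (−0.42), the latter chosen after seeing the data. With 1 library left out, Magoh was between −0.20 and 0.27, with the sign changed without WT1 (−0.06) and KO1, and Smg1 was between −0.50 and 0.093, with the sign changed without WT1. Over all genes, 814 were higher and 666 lower with limma on FPKM at a pseudocount of 1, and 1130 and 1027 at 0.1. Leaving out 1 library gave 826 to 3571 higher and 821 to 3384 lower, the highest without WT2 and the lowest without KO2, and 851 and 824 without KO1. The cause was not tested. With the replicate block, 3128 were higher and 2994 lower, and Magohb was also called (1.03, adjusted p = 0.0320). WT1 and KO1 deviated from their group means with a correlation of 0.349, but with only 2 pairs and no label that ties the numbers, pairing was not established. Among 32 other named genes, Gadd45a, Atf3 and Atf4 not included, 52 of 372 values from other settings and 34 of 128 from left-out libraries lost the call. None changed sign. Of the 10 genes, Magohb had the fewest reads, with 59 in WT1 and 178 in WT2.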
